A study of Homo sapiens with 6 samples.

Results

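The genes described here are 9 cytokines that tumour cells and stromal cells secrete: IL6, IL11 and LIF of the interleukin-6 family, IL24 of the interleukin-10 and interleukin-20 family, the interleukin-1 genes IL1A and IL1B, and the colony-stimulating factors CSF1, CSF2 and CSF3. Members were all probe sets whose only gene symbol was 1 of these 9, which gave 14 of 54613 probe sets, for 8 of 19775 genes with a probe set of their own. CSF2 had no probe set under its symbol alone and was not analysed here. The rule that picks them uses symbols and no measured value, but the 9 genes were listed with earlier results of these data known.

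RNA came from MDA-MB-231, a breast cancer line of the triple-negative, invasive type. The cells carried, from pLKO.1 lentiviral vectors, a short hairpin against ATAD3A (shATAD3A, 3 arrays) or, as the control, a hairpin against GFP (shGFP, 3 arrays). Both groups went through 2 weeks of selection with puromycin at 1.0 µg/ml and were at passage 2. The use of a lentiviral vector and the selection were thus common to them, while their integration sites were not given. The comparison asks which transcripts differ between cells that carry either hairpin, ATAD3A being a mitochondrial ATPase of the inner membrane. How many hairpin sequences were used, and whether the cells were a pool or a clone, was not given in the sources used here. The labels also do not say that the 3 arrays of a group came from separate cultures, so the p-values reflect the spread among these arrays alone, which may be technical, and the number of arrays limits the precision.

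Cytokines of the interleukin-6 family bind a ligand-specific receptor and then the shared chain gp130, encoded by IL6ST, which activates JAK kinases and the transcription factor STAT3. IL-1α and IL-1β bind the receptor IL1R1 with the accessory protein IL1RAP and signal through MYD88 and IRAK kinases to NF-κB, and IL-1β needs cleavage, most often by caspase-1, before it acts. CSF1, CSF2 and CSF3 drive the survival and growth of macrophages, granulocytes and monocytes, and neutrophils. Basal-like breast cancer lines are known for secreting many of these proteins, and transcription of most of them is known to respond to NF-κB, AP-1 and C/EBP factors.

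Promoter windows, from 250 bases before to 50 bases from the start site, were available from RefSeq (GRCh38.p14) for 6 of the 9 genes: IL6, IL11, IL24, IL1A, IL1B and CSF2. The 4 below are shown because they set a gene that fell far (IL24), the neighbouring pair IL1A and IL1B, of which IL1A alone was called, and the uncalled IL6 side by side. They are printed 5′ to 3′ on the strand of the gene, and capitals mark each match, on either strand, to 1 of 4 motifs searched: the κB motif GGNNTTTCC, the AP-1 motif TGANTCA, the C/EBP motif TTNCNNAA and the TATA box TATAAA. IL24 lies on the plus strand at chr1:206897193-206897492, IL1A on the minus strand at chr2:112784444-112784743, IL1B on the minus strand at chr2:112836730-112837029 and IL6 on the plus strand at chr7:22726950-22727249. IL1A had another start site with a window of its own, which overlaps the one shown.
IL24: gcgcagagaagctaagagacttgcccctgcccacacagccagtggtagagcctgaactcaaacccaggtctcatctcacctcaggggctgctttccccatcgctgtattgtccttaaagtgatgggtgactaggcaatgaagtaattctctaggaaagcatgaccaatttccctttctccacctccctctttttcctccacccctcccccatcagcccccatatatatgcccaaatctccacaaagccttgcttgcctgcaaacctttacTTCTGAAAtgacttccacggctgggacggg
IL1A: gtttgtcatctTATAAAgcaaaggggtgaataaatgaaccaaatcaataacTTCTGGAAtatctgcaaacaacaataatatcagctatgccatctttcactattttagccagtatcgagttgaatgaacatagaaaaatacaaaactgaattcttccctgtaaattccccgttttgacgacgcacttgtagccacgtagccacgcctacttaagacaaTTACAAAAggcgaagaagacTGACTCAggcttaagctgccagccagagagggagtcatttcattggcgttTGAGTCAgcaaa
IL1B: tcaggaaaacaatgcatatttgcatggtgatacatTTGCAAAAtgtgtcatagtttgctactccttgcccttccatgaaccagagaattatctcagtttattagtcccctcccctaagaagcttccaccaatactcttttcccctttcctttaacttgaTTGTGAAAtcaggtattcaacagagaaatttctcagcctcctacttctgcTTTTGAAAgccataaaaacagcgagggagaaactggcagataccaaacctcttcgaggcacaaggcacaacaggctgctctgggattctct
IL6: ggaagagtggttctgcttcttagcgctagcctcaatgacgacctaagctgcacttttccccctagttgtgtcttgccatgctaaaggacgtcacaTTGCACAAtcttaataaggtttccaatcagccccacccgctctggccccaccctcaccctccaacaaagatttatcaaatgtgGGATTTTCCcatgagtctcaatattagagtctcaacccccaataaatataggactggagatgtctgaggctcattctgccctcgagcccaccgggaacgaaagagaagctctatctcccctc
The IL1A window held AP-1 matches at -12 and 39 relative to its start site, C/EBP matches at -199 and -32, and the letters TATAAA at -239. The IL1B window held C/EBP matches at -215, -91 and -41 and no match to the other motifs. IL6 had a κB match at -72 and a C/EBP match at -155, and IL24 had a single C/EBP match at 21. The window of IL11, which is not printed, held an AP-1 match at -96, and that of CSF2 held none. Over all 35116 windows in the table, 6.26% held the κB letters, 7.71% the AP-1 letters, 36.8% the C/EBP letters and 11.5% TATAAA. These matches describe the letters of the windows only, and binding of any factor was not measured.

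Values are log2 expression values per probe set, a change is knockdown minus control on that scale, errors are the SD of n = 3 arrays or limma's SE, and a gene was called, as rose or fell, at a limma adjusted p under 0.05. Values below 4.70 formed a low mode, where a probe set holds little signal, and 48.2% of genes had their mean there. ATAD3A read 7.73, 7.78 and 7.80 in control and 7.41, 7.03 and 7.39 in knockdown, a change of -0.49 (limma adjusted p = 0.022). ATAD3A had a single probe set, of the x_at type, whose probes can match more than 1 transcript. It was thus not tested without s_at and x_at probe sets. With values below 4.70 set to 4.70 its call was lost (limma adjusted p = 0.0841). Its adjusted p was 0.0596, 0.0687 and 0.0748 when control replicate 1, 2 or 3 was left out. Correlations between arrays averaged 0.9986 to 0.999 within a group and 0.9892 to 0.9897 between groups. Of the 8 MDA-MB-231 markers checked, 7 lay above the low mode, while SPARC, at 2.75, did not; 4 of the 8 fell (MSN, CD44, AXL and CAV1, with changes of -0.45 to -0.25) and ANXA1 rose by 0.17. Of 6 luminal breast markers 2 rose and 1 fell. The keratins KRT8 and KRT18 rose by 1.42 and 1.00 and GATA3 fell by 0.63. ESR1, PGR and FOXA1 were in the low mode. Of all genes above the low mode 24% fell and 34.2% rose, and the marker counts were not tested against these shares. The luminal list's mean level was 6.83 to 6.84 over the control arrays and 7.12 to 7.16 over the knockdown arrays, and the part of these shifts in the cytokine changes was not tested. Of 10 leukocyte markers measured 0 lay above it and 2 fell, CD14 (-1.60) and LYZ (-0.18), with mean levels of 2.76 to 2.86 over the control arrays and 2.58 to 2.66 over the knockdown arrays, and PTPRC, the marker of all leukocytes, at 3.19 and 3.20. Of 7 fibroblast markers 0 lay above it and 0 were called, with mean levels of 2.78 to 2.83 in control and 2.88 to 2.92 in knockdown. In bulk RNA, fewer cells that make a transcript and less of it per cell cannot be told apart.

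Of the 8 cytokine genes, each read at its brightest probe set, 5 fell, 1 rose and 2 were not called. The genes that fell were CSF3, IL24, IL1A, LIF and CSF1, in order of size, and the gene that rose was IL11, by little. Over all 19775 genes, 31.3% were called, 13% falling and 18.4% rising. Among the 10393 genes above the low mode in at least 1 group, where all 8 cytokines lay, 24% fell and 34.2% rose. The median change of the 8 genes was -0.475, and that of all genes was -0.000837. The groups did not overlap for 6 of the 8 genes, and for 42% of all genes. Both of these figures for all genes include the 48.2% with a mean in the low mode, so they are not a like base for the 8. Counted by probe set, 5 of the 14 fell and 2 rose, while 22.4% of all probe sets were called. CSF3 and IL24 were the cytokines called with a fall beyond 2-fold, as were 2.41% of all genes. That share also includes the genes in the low mode, so it is not a like base either.

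**Figure D1:**
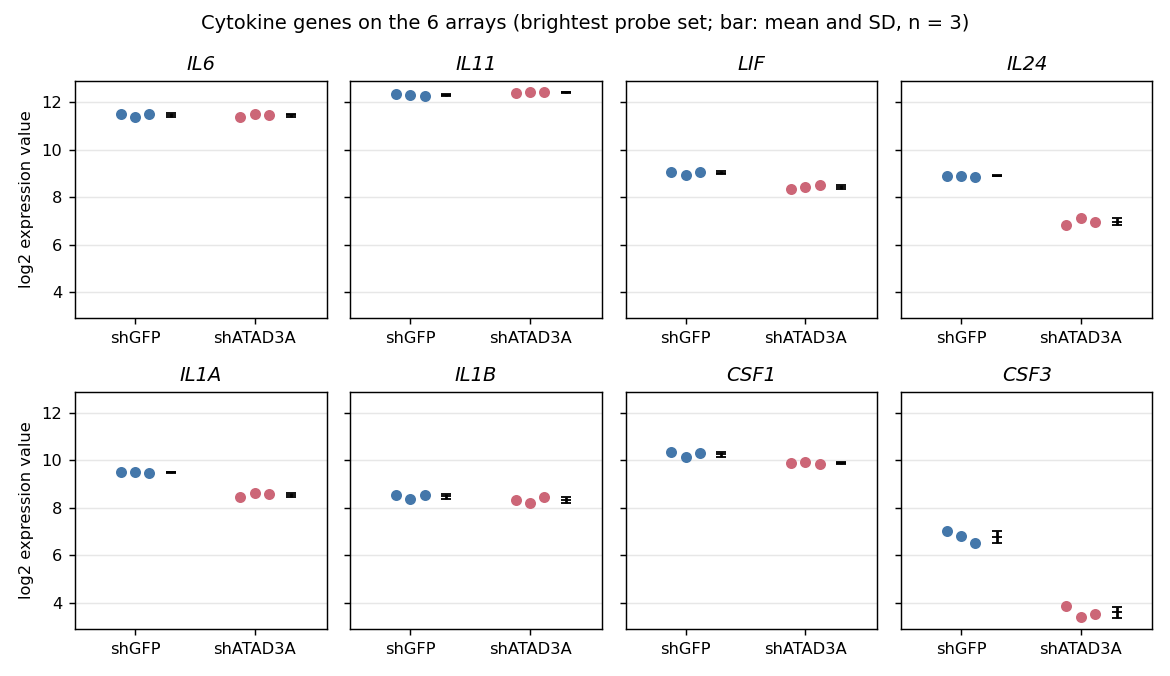
Log2 expression value (y axis) of the 8 cytokine genes on each of the 3 shGFP and 3 shATAD3A arrays (points), with the mean and SD of each group (bars). Levels of different genes rest on different probes and are not comparable. CSF3, IL24, IL1A, LIF and CSF1 lie lower on every knockdown array than on every control array, while the points of IL6 and IL1B overlap.

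CSF3, the granulocyte colony-stimulating factor that drives neutrophil production, had the largest fall of the 8. Its probe set (207442_at) read 7.02, 6.82 and 6.51 in control and 3.86, 3.39 and 3.55 in knockdown. Every knockdown array thus lay below every control array and inside the low mode. The mean went from 6.78 ± 0.26 to 3.60 ± 0.24 (SD, n = 3), a change of -3.19 ± 0.17 (SE; 95% interval -3.61 to -2.76; limma adjusted p = 0.00011). On the linear scale this was 9.1-fold lower, a size that is imprecise because the knockdown values hold little signal. With values below 4.70 set to 4.70 the change was -2.09 (limma adjusted p = 0.00336).

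IL24 (206569_at), a member of the IL-20 group of cytokines known for its growth-suppressing action on tumour cells, read 8.90, 8.90 and 8.86 in control and 6.82, 7.12 and 6.96 in knockdown. All 6 values lay above the low mode and the groups were far apart. The mean went from 8.89 ± 0.021 to 6.97 ± 0.15 (SD, n = 3), a change of -1.92 ± 0.076 (SE; 95% interval -2.11 to -1.74; limma adjusted p = 3.9e-05), or 3.79-fold lower. Only 135 of 19775 genes had a lower change.

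IL1A encodes IL-1α, a cytokine active without cleavage that epithelial cells release on damage. Its brighter probe set (210118_s_at) read 9.50, 9.52 and 9.44 in control and 8.46, 8.60 and 8.58 in knockdown. The groups did not overlap, and the change was -0.94 ± 0.046 (SE; 95% interval -1.05 to -0.82; limma adjusted p = 8.3e-05), a fall of 1.92-fold. The other probe set (208200_at) read 4.95, 4.51 and 4.24 in control and 4.121, 4.087 and 4.003 in knockdown. It also did not overlap between groups, but both means lay in the low mode and its change of -0.50 was not called (limma adjusted p = 0.124). It was called without control replicate 3 (-0.661, adjusted p = 0.0349). The fall of IL1A thus rests on a probe set of the s_at type, whose probes can match more than 1 transcript, and without such probe sets IL1A was not called (adjusted p = 0.148).

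IL1B, which encodes IL-1β and lies beside IL1A, was not called on either probe set. The brighter one (39402_at) read 8.55, 8.36 and 8.54 in control and 8.31, 8.21 and 8.46 in knockdown. Its groups overlapped, with a change of -0.16 ± 0.084 (SE; 95% interval -0.36 to 0.05; limma adjusted p = 0.33). The other (205067_at) read 8.68, 8.38 and 8.49 in control and 8.34, 8.31 and 8.16 in knockdown. Its change was -0.25 ± 0.089 (SE; limma adjusted p = 0.126). Here the groups did not overlap, and the change was called only when dim probe sets were left out (adjusted p = 0.0483). The intervals of the changes of IL1A and IL1B on their brighter probe sets do not overlap, although the difference itself was not tested.

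LIF, leukemia inhibitory factor, signals through LIFR and gp130. Its probe set (205266_at) read 9.05, 8.94 and 9.06 in control and 8.36, 8.44 and 8.53 in knockdown. Each knockdown array lay below each control array, and the change was -0.58 ± 0.056 (SE; 95% interval -0.71 to -0.44; limma adjusted p = 0.00089). On the linear scale LIF was lower by 1.49-fold.

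CSF1, the macrophage colony-stimulating factor, fell less. Its bright probe set (209716_at) read 10.34, 10.14 and 10.29 in control and 9.90, 9.91 and 9.83 in knockdown. The groups did not overlap, and the change was -0.38 ± 0.059 (SE; 95% interval -0.52 to -0.23; limma adjusted p = 0.00624), or 1.30-fold lower. The other 3 CSF1 probe sets (207082_at, 210557_x_at and 211839_s_at) had group means of 2.26 to 2.62, in the low mode, and changed by -0.029, -0.0015 and -0.013 without being called. Averaged over the 4 probe sets the change of CSF1 was -0.105.

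IL11, a gp130 cytokine tied to bone metastasis of breast cancer, was the gene that rose. On its brightest probe set (206924_at) it read 12.32, 12.31 and 12.26 in control and 12.39, 12.43 and 12.40 in knockdown. Its change was 0.11 ± 0.029 (SE; 95% interval 0.04 to 0.18; limma adjusted p = 0.0458). The groups did not overlap, but the rise was 1.08-fold, and the call was lost when any 1 of the 6 arrays was left out (adjusted p from 0.0653 to 0.148). The dimmer probe set (206926_s_at) read 8.47, 8.38 and 8.51 in control and 8.98, 9.05 and 9.06 in knockdown. Its change was 0.57 ± 0.043 (SE; 95% interval 0.47 to 0.68; limma adjusted p = 0.00036), and it was called under all 14 other settings in which it was tested. Both IL11 probe sets thus rose, by amounts whose intervals do not overlap.

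IL6, the founding member of the family, was not called. Its probe set (205207_at) read 11.51, 11.36 and 11.49 in control and 11.39, 11.49 and 11.45 in knockdown, with overlapping groups. The change was -0.0083 ± 0.052 (SE; limma adjusted p = 0.969), and its 95% interval, -0.14 to 0.12, gives the sizes that these arrays leave possible.

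Ordered by change, the genes ran CSF3, IL24, IL1A, LIF, CSF1, IL1B, IL6 and IL11. The intervals of IL24, IL1A and LIF did not overlap each other. That of CSF3 did not overlap them either, but it rests on knockdown values in the low mode, and with values floored at 4.70 the change of CSF3, -2.09, lay inside the interval of IL24, so the order of these 2 is uncertain. Those of LIF and CSF1, of CSF1 and IL1B, of IL1B and IL6, and of IL6 and IL11 overlapped. Such overlap does not show that the changes are equal, and their differences were not tested. For IL11 it holds on the brightest probe set, while the interval of the dimmer one, 0.47 to 0.68, lay above that of IL6. Within the interleukin-6 family LIF fell, IL11 rose with the limits given above, and IL6 was not called.

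**Figure D2:**
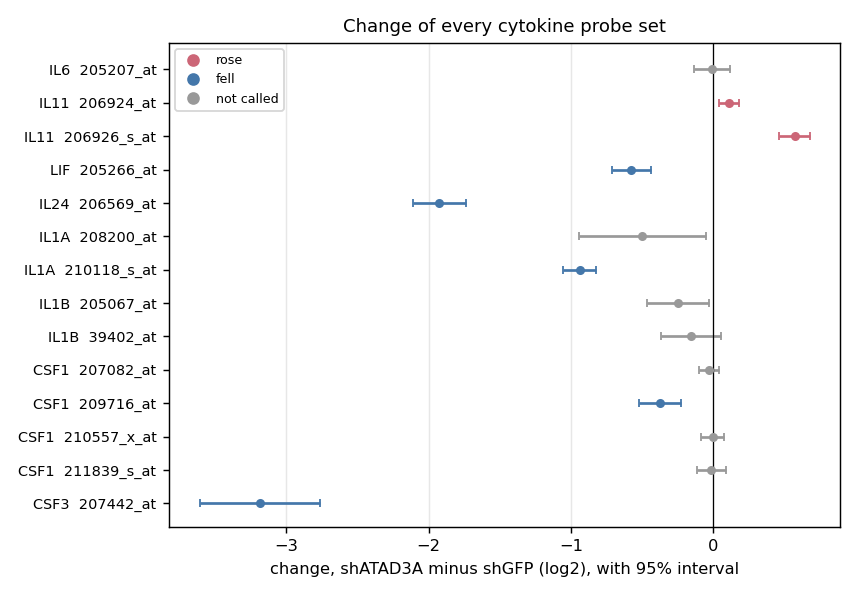
Change of each of the 14 probe sets of the 8 cytokine genes (x axis, shATAD3A minus shGFP in log2 units; bars are 95% intervals from limma, n = 3 arrays a group; colours show the call). CSF3 and IL24 lie farthest left, and the probe sets of IL1A, IL11 and CSF1 differ in size within each gene.

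The receptors of the interleukin-6 family moved in both directions. Of 8 measured, 3 rose (IL6R, OSMR and LIFR), 3 fell (IL31RA, IL27RA and IL6ST), and IL11RA and CNTFR were in the low mode and not called. Of all genes above the low mode, as 6 of the 8 were, 34.2% rose and 24% fell, and the difference was not tested. The median change was -0.184 and the mean 0.205, which differ in sign. IL6R, the ligand-binding chain for IL-6, read 4.33, 4.49 and 3.98 in control and 8.18, 7.55 and 7.39 in knockdown. Its change was 3.44 ± 0.24 (SE; limma adjusted p = 0.00027). It rose out of the low mode, so this size is imprecise, and it was 3.01 with values floored at 4.70. Another IL6R probe set rose by 2.58, and the remaining one was not called. IL6ST, the gp130 chain, read 14.2, 14.3 and 14.4 in control and 13.9, 13.9 and 13.8 in knockdown. Its change was -0.45 ± 0.049 (SE; limma adjusted p = 0.00145). Of its 7 probe sets 5 fell, with changes of -0.95 to -0.19, and the other 2 were in the low mode. LIFR rose by 0.86, with 4 of its 5 probe sets called, and OSMR, the oncostatin M receptor, rose by 1.00, with all 3 called. IL31RA changed by -1.65 on the 1 of its 3 probe sets above the low mode, and IL27RA by -1.19 and -1.92 on the 2 of its 3 above it.

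Of 7 other measured genes listed with the interleukin-6 family ligands, 2 rose and 0 fell, with a median change of 0.0277. The list includes IL12A, EBI3 and IL23A, which are subunits of the related interleukin-12 family. Above the low mode, where 3 of the 7 lay, 34.2% of all genes rose and 24% fell. The 2 genes that rose were of these subunits: IL12A, from 5.23 to 6.32, and EBI3, from 5.05 to 5.79, which together form IL-35. OSM, CNTF, CTF1 and IL27 were in the low mode in both groups.

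Among JAK, STAT and SOCS proteins, 8 of 23 rose and 6 fell, with a median change of 0.0334. Above the low mode, where 19 of the 23 lay, 34.2% of all genes rose and 24% fell. These counts were not tested against those shares. SOCS3, the feedback inhibitor that binds gp130 and is induced by STAT3, read 9.01, 9.27 and 9.11 in control and 10.2, 10.1 and 10.4 in knockdown. Its change was 1.11 ± 0.088 (SE; limma adjusted p = 0.00042). Another of its probe sets rose by 0.67, and 2 more were in the low mode. STAT4 rose by 1.45, the kinase JAK1 by 0.59, while SOCS5 changed by -0.73 and SOCS2 and SOCS6 both by -0.55. STAT3 itself was not called on any of its 4 probe sets, with a change of 0.033 on the brightest.

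Of 22 measured genes known to respond to IL-6 and STAT3, 8 fell and 4 rose, with a median change of -0.0338. All 12 that lay above the low mode were called, where 24% of all such genes fell and 34.2% rose, and no test set the list against them. VEGFA, an angiogenic growth factor, fell by 1.84, with all 4 of its probe sets falling, and the protease inhibitor TIMP1 fell by 1.03. CCND1, PIM1, JUNB, MYC, MCL1 and BCL2L1, which act in growth and survival, had changes of -0.78 to -0.27. Those that rose were SOCS3, the IL-4 receptor chain IL4R (0.96), CEBPD (0.39) and CEBPB (0.33). The other 10, mostly secreted proteins of the liver such as CRP, HP and HAMP, were in the low mode in both groups. SOCS3 is counted in this list and in the one before it.

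**Figure D3:**
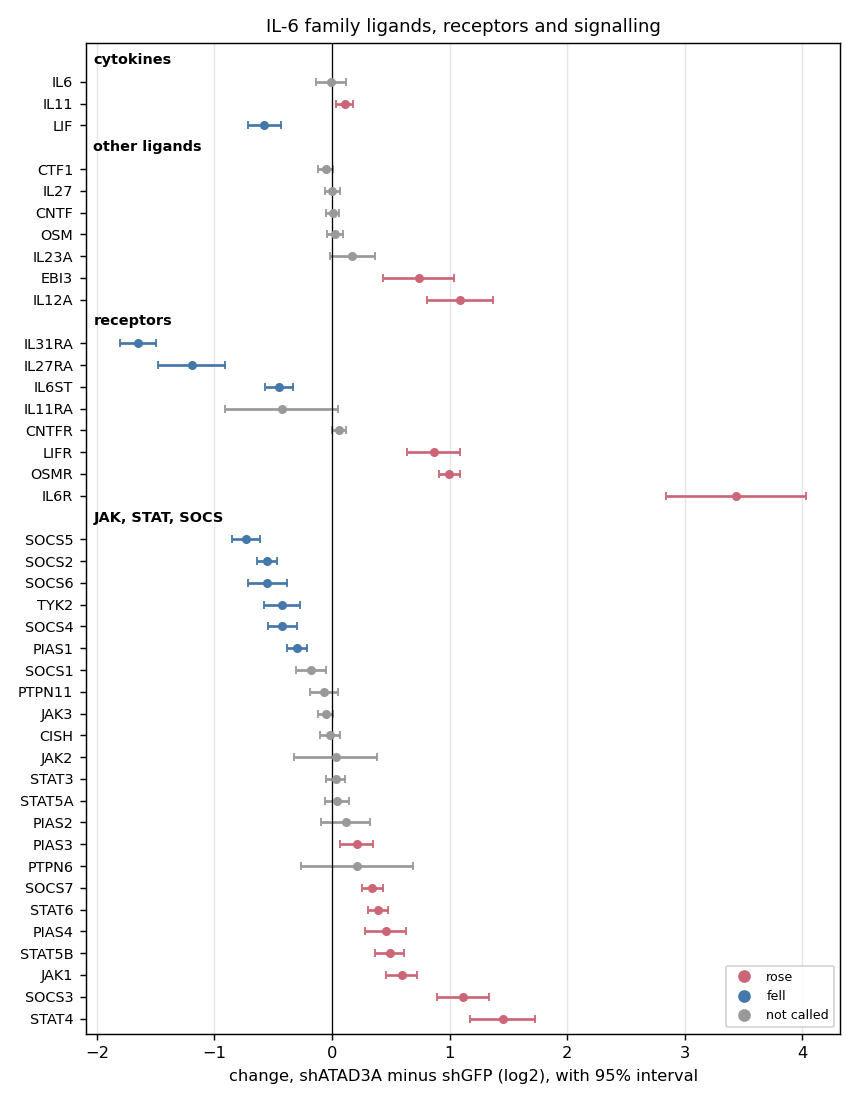
Change (x axis, shATAD3A minus shGFP in log2 units; bars are 95% intervals, n = 3 arrays a group) of the interleukin-6 family cytokines, other ligands, receptors and JAK, STAT and SOCS genes at their brightest probe sets, coloured by call. IL6R lies farthest right, at 3.44, and the receptors IL31RA, IL27RA, IL6ST and IL11RA lie left of 0, of which IL11RA was not called.

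In the interleukin-1 family, IL18 was the only 1 of 10 other ligands and antagonists above the low mode, and it rose. It encodes IL-18, which like IL-1β is cleaved by caspase-1. It read 8.65, 9.06 and 8.95 in control and 11.6, 11.4 and 11.5 in knockdown. Its change was 2.63 ± 0.12 (SE; limma adjusted p = 6.4e-05). The list's median change was 0.0028. The antagonist IL1RN and the ligands IL33, IL36A, IL36B, IL36G and IL37 were in the low mode.

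Of the 10 receptors of this family 1 rose and 1 fell, with a median of -0.0214 and a mean of 0.0318, which differ in sign. Only 3 of the 10 lay above the low mode, where 34.2% of all genes rose and 24% fell. IL1R1, the signalling receptor for IL-1α and IL-1β, rose from 6.66 ± 0.096 to 7.43 ± 0.16 (SD, n = 3; limma adjusted p = 0.00206), while its other probe set was in the low mode. IL1RAP fell by 0.56 on its brighter probe set (adjusted p = 0.00405) and rose by 0.62 on the other (adjusted p = 0.0352), so its direction depends on the probe set. The signalling list had 2 of 14 rising and 5 falling, with a median of -0.0089. Of its 14 genes 13 lay above the low mode, and the difference from the shares given above was not tested. The kinase adaptors TAB2 and TAB3 fell by 1.01 and 0.98, and the ubiquitin ligase PELI1 by 0.90 with all 3 of its probe sets falling. IRAK1 and MYD88, through which the receptor signals, fell by 0.30 and 0.18, and IRAK3, a brake on the pathway, rose by 0.54. IRAK2 was not called (-0.015) and IRAK4 was not measured. The TAB2 call was lost without s_at and x_at probe sets, and TOLLIP, an inhibitor that rose by 0.40, read -0.0162 there.

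Genes of interleukin-1 processing and release fell in 8 of 16 cases and rose in 3, with a median change of -0.18. Of all genes 13% fell and 18.4% rose, or 24% and 34.2% above the low mode, where 13 of the 16 lay, and the difference was not tested. The inflammasome sensor NLRP3 read 5.25, 6.10 and 4.94 in control and 2.37, 2.37 and 2.36 in knockdown. Its change was -3.07 ± 0.29 (SE; limma adjusted p = 0.00082). The knockdown values were in the low mode, its other 2 probe sets were in the low mode throughout, and with values floored at 4.70 the change was -0.73 and not called (adjusted p = 0.36). The DNA sensor AIM2 fell by 1.05, the adaptor PYCARD by 0.80, and the pore-forming proteins GSDMD and GSDME by 0.44 and 0.46. CAPN1 and CAPN2, subunits of the calpain proteases that cleave IL-1α, fell by 0.40 and 0.28. Of 4 caspases in the list 3 rose and CASP5, in the low mode, was not called. CASP4 rose by 1.44, CASP8 by 0.48 and CASP1 by 0.60, although CASP1 was not called without s_at and x_at probe sets (adjusted p = 0.166).

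**Figure D4:**
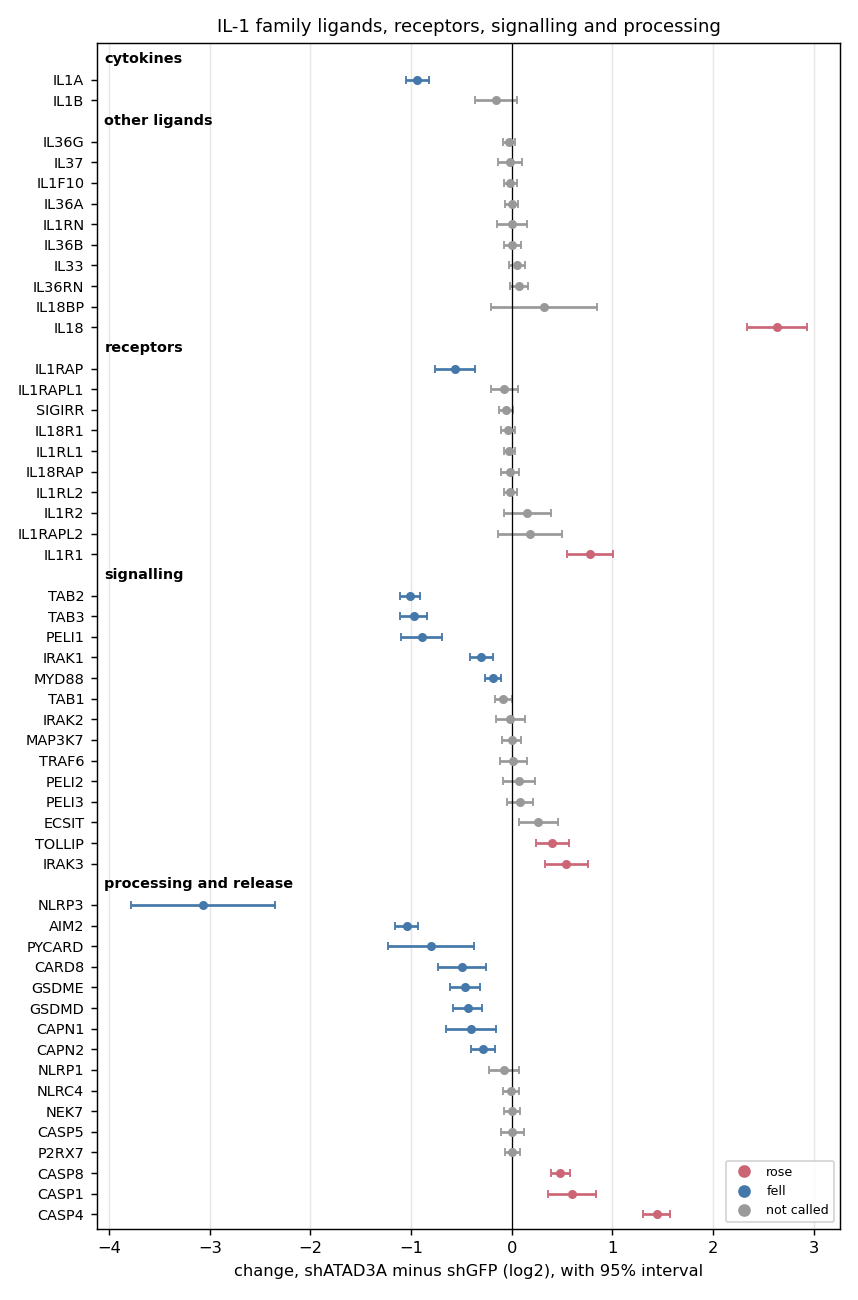
Change (x axis, shATAD3A minus shGFP in log2 units; bars are 95% intervals, n = 3 arrays a group) of IL1A, IL1B and the other interleukin-1 family ligands, receptors, signalling proteins and processing genes at their brightest probe sets, coloured by call. IL18 (2.63) lies farthest right and NLRP3 (-3.07) farthest left.

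The family of IL24 showed no other call, but almost all of it lay in the low mode. Of 11 ligands and receptors of the interleukin-10 and interleukin-20 family, 0 rose and 0 fell by limma. Only 1 of the 11 lay above the low mode, where 34.2% of all genes rose and 24% fell, so the count says little about the family. Across the 17 other settings the list had 0 to 2 calls. By limma 1 gene, IL20RB, had an unadjusted p under 0.05 (0.046). The ligands IL10, IL19, IL20, IL22 and IL26 were in the low mode. IL20RB, a chain of the receptors through which IL-24 signals, had the smallest p of the list, with a change of 0.29 (limma adjusted p = 0.158). Its partners IL20RA and IL22RA1 were also in the low mode, so the chains of both IL-24 receptors lay there in both groups. IL10RB was the 1 member above it and was not called (0.18, adjusted p = 0.192).

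Of 8 receptor genes for colony-stimulating factors and related cytokines, 1 rose and 0 fell, with a median of -0.0017 and a mean of 0.217, which differ in sign. Only 1 of the 8 lay above the low mode, where 34.2% of all genes rose and 24% fell. CSF2RA, the ligand-binding chain for GM-CSF, read 7.15, 7.48 and 7.45 in control and 9.18, 9.03 and 9.19 in knockdown. Its change was 1.78 ± 0.10 (SE; limma adjusted p = 0.00013). All 4 of its probe sets rose. CSF1R and CSF3R, the receptors of CSF1 and CSF3, were in the low mode at 2.43 and 2.16 in control, as was CSF2RB, the partner chain of CSF2RA. Of 9 other growth cytokines 1 rose and 1 fell, with a median of -0.0162 and a mean of 0.0544. Above the low mode, where 4 of these 9 lay, the shares of all genes are those just given. KITLG, stem cell factor, rose from 7.80 to 9.23 on 1 of its 4 probe sets, the others being in the low mode. FLT3LG changed by -0.74 (limma adjusted p = 0.0192), a call lost under 7 of 16 other settings, among them leaving out control replicate 1 or 2 or any 1 knockdown array.

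Regulators that bind or degrade cytokine mRNAs fell in 5 of 17 cases and rose in 2, with a median change of -0.0165 and 15 of the 17 above the low mode. There, 24% of all genes fell and 34.2% rose, and the difference was not tested. RC3H2, a Roquin protein, and the deadenylase CNOT7 fell by 0.72 and 0.70, and ZFP36L1 by 0.33, while its relative ZFP36L2 rose by 0.50. ELAVL1, which stabilises such mRNAs, changed by 0.16 at its brightest probe set (limma adjusted p = 0.022), a call lost under 7 of 17 other settings, among them median centring and leaving out control replicate 2 or 3 or knockdown replicate 2 or 3. Another of its probe sets fell, and the average over its probe sets was called the other way, at -0.124. ZFP36, tristetraprolin, was not called (0.18, adjusted p = 0.141).

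Transcription factors known to act on cytokine promoters fell in 12 of 22 cases and rose in 4, with a median change of -0.17. Above the low mode, where 20 of the 22 lay, 24% of all genes fell and 34.2% rose, and the difference was not tested. AP-1 subunits were among those that fell: JUND by 1.12, JUNB by 0.58, FOSL1 by 0.49, JUN by 0.25 and FOSL2 by 0.23. JUND rested on 1 of its 4 probe sets, since the others were in the low mode. The chromatin proteins HMGA1 and HMGA2 fell by 1.07 and 0.71, ETS1 by 0.86 and the NF-κB subunit RELB by 0.75. The NF-κB subunit RELA fell by 0.15 (adjusted p = 0.0464), and REL, NFKB1 and NFKB2 were not called. NFKBIZ, a nuclear cofactor of NF-κB known to be needed for IL-6 induction, rose by 1.45, with both of its probe sets rising, and CEBPB and CEBPD rose as given above. ATF3 rose by 1.14 on its s_at probe set, the others being in the low mode. CEBPB, CEBPD and JUNB are counted here and among the STAT3 response genes.

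Genes lying beside each cytokine, 3 measured genes on either side in the RefSeq gene order (GRCh38.p14), were read to see whether the changes extended along the chromosome. A neighbour in the low mode holds little signal. Of each 6 neighbours, 1 lay above it for IL24 and for IL11, and 2 for LIF, IL1B and CSF1. For IL6 and IL1A 3 did, and for CSF3 4 did. Over all genes 31.3% were called. With so few readable neighbours, the counts cannot show whether changes extended along the chromosome. IL24 had 0 of 6 neighbours called. These include IL10, IL19 and IL20 of its own family, all in the low mode, and their median change was -0.0227. CSF3 had 1 of 6, THRA, which fell by 0.48, and a median of 0.0522. IL1A had 1 of 6, SLC20A1, which fell by 0.22, and IL1B had IL1A as its 1 of 6. The IL1A and IL1B sets share NT5DC4, CKAP2L, IL37 and IL36G. LIF had 1 of 6, CASTOR1 (-0.69, in the low mode), with its relative OSM next to it in the low mode. CSF1 fell while 2 of its 6 neighbours rose, GSTM3 by 0.72 and AHCYL1 by 0.18. IL11 had 1 of 6, UBE2S, which rose by 0.72. IL6 was the only 1 of the 8 with 3 neighbours that fell, HYCC1 by 0.58, KLHL7 by 0.61 and NUP42 by 0.33, on 1 side of an IL6 that was not called. The antisense gene IL6-AS1, on its other side, was in the low mode and not called. Of the neighbours other than IL1A, THRA, SLC20A1 and CASTOR1 were the ones called in the same direction as a cytokine that fell, and UBE2S in that of IL11.

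**Figure D5:**
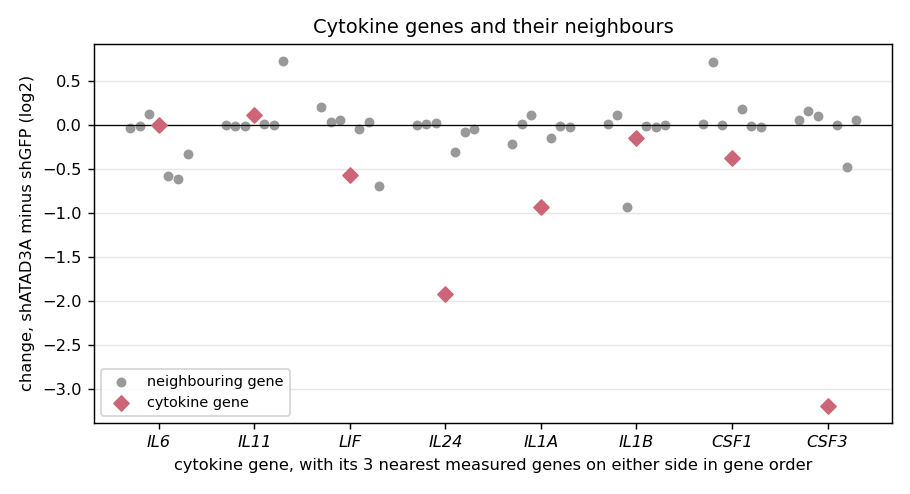
Change (y axis, shATAD3A minus shGFP in log2 units) of each cytokine gene (diamonds) and of the 3 nearest measured genes on either side (circles), in gene order. CSF3 (-3.19) and IL24 (-1.92) lie far below all 6 of their neighbours, of which 4 for CSF3 and 1 for IL24 were above the low mode.

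The genes closest to each cytokine in pattern were found by the Euclidean distance between log2 values on the 6 arrays after each gene was centred on its mean, among 19775 genes. The nearest to IL24 was CXADR, an adhesion molecule and viral receptor, at a distance of 0.0897 and with a change of -1.91, followed by SERINC3 at 0.156 (-1.99). The nearest to CSF3 was STOX2 at 0.282 (-3.13), then SLCO4A1-AS1 at 0.397 (-3.32). IL1A lay nearest to ASAP1 at 0.054 and to OGT at 0.0832, and LIF to COX7B at 0.0629 and FKBP14 at 0.07. CSF1 lay nearest to RFX1 at 0.0737 and PATL1 at 0.0748. For the smaller changes, IL11 lay nearest to STK40 at 0.0373 and RPS19 at 0.0381, IL1B to ZNF284 at 0.0771 and ATXN7L3 at 0.0901, and IL6 to ZNF609 at 0.0498 and SMG8 at 0.0522. No cytokine was among the 2 nearest genes of another. The nearest gene to CSF3 was thus farther from it than the nearest gene was from any of the other 7. Only 40 of 19775 genes had a lower change than CSF3, and its knockdown values lay in the low mode. What sets this distance was not tested.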

How the data were processed

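Per the labels' protocols, 250 ng of total RNA was biotin-labelled for Affymetrix U133 Plus 2.0 arrays. The deposited values are log2, which was read from their range (0.826 to 16.6), and array medians lay between 3.16 and 3.23. The authors' tool was Partek, per the submitters' processing notes. The summary method was not given in the sources used here. Of 54675 probe sets, 62 controls were set aside; 41091 had 1 symbol in the 2016 platform annotation, 1801 several and 11721 none.

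The groups were compared with limma 3.58.1 in R 4.3.3 (lmFit and eBayes, two-sided, no covariates) over 54613 probe sets, with Benjamini-Hochberg adjustment over all of them and a threshold of 0.05. The code was tested on simulated data. A gene was read at its brightest probe set by mean value. The low mode boundary, 4.70, is the lowest density of gene means, and another bandwidth gave 4.08. At 4.08, for example, the control means of IL6R (4.27) and of the IL1A probe set 208200_at (4.57) would lie above the boundary. The members and lists were chosen with earlier results of these data known. From each list the rule took the 2 largest increases and 2 largest decreases called, or the smallest p where none was called; further genes were named with their values known. Alternatives covered normalization, dim probe sets, probe set choice, variance prior, array weights, threshold, replicate number and each array left out. The same alternatives for the lists were added after seeing the data.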

Additional observations from a re-analysis of the deposited data

How the results depend on the processing

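Across 17 other settings, 5 or 6 of the 8 cytokine genes were called, and 5 fell in all but 1 of them, the setting without s_at and x_at probe sets, where 4 did. CSF3, IL24, LIF and CSF1 kept their call and direction in all 17, with changes of -3.32 to -2.09, -2 to -1.85, -0.618 to -0.529 and -0.435 to -0.105. IL1A ranged from -0.966 to -0.497, and IL6 and IL1B were never called on their brightest probe sets. IL11 on its brightest probe set lost its call in 13 of 17. All probe sets called numbered 12240, and 7249 without s_at and x_at probe sets, a setting that tests fewer of them. IL1RAP read 0.0269 and ELAVL1 -0.124 with the mean of a gene's probe sets, and TOLLIP read -0.0162 without s_at and x_at probe sets; each of these averages or picks among probe sets that disagree. Same-numbered arrays did not deviate together (correlations of -0.237, -0.183 and 0.069), so the numbers were not taken to pair the samples. With a replicate block, 5 cytokine genes, 6 cytokine probe sets and 10773 of all probe sets were called. Signal limits the values below 4.70, above all those of CSF3, NLRP3 and IL6R.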
